A study of Mus musculus with 26 samples.

Results

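The clustered protocadherins were taken as every gene of the deposited expression table whose symbol begins with *Pcdha*, *Pcdhb* or *Pcdhg*, which gave 57 of 52454 symbols in 58 rows. There were 13 *Pcdha*, 22 *Pcdhb* and 22 *Pcdhg* members, and the 2 rows that both carry the name *Pcdha11* were summed. All of them lie on the plus strand of mouse chromosome 18 (mm10). *Pcdha* spans 36930184 to 37187661, *Pcdhb* spans 37264938 to 37524479 and *Pcdhg* spans 37661793 to 37841873.

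Clustered protocadherins are cadherin-type surface proteins through which neurons recognise their own branches, and each cell uses a small and partly random selection of them. Each variable exon has its own promoter, at which CTCF and cohesin loop the DNA to a distant enhancer, and DNA methylation of the promoter goes with silence of that isoform. In *Pcdha* and *Pcdhg* the chosen variable exon is spliced to 3 constant exons that all members of the cluster share, while *Pcdhb* genes have no constant exons. The C-type members *Pcdhac1*, *Pcdhac2*, *Pcdhgc3*, *Pcdhgc4* and *Pcdhgc5* stand last in their clusters and are used more steadily than the alternate ones. DNMT3A and DNMT3B are the enzymes that place new DNA methylation in the embryo, and loss of human DNMT3B activity causes the ICF immunodeficiency syndrome.

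RNA-seq was available from 10 libraries of E14.5 mouse material, with 1 library per condition, so that no difference below has a replicate check and no test was run. The 2i-MEFs were fibroblasts (passage p1, female, strain F1 (129X1/SvJ and MSM/Ms)) grown out of chimaeric embryos that had been made by injecting ICR blastocysts with GFP-marked 2i/L embryonic stem cells. The stem cells carried a CRISPR/Cas9 knockout of *Dnmt3a* or of *Dnmt3b*, and host cells were removed by G418 and GFP sorting. The other MEFs (passage p1), hearts and livers were male, labelled C57BL6, and came from crosses of heterozygous B6;129S4 mice with the *Dnmt3a* tm1Enl deletion, as WT or *Dnmt3a* KO. The MEFs had DMSO or GSK126, an inhibitor of the histone methyltransferase EZH2. Each 2i-MEF genotype goes back to its own edited stem cells, so that genotype, cell line and animal cannot be told apart. RNA of WT 2i-MEFs was not used here.

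Values are FPKM, in which reads are scaled to transcript length and to the size of the library. Estimated depth was 9180617 reads in *Dnmt3b* KO 2i-MEFs, 10936922 reads in *Dnmt3a* KO 2i-MEFs and 15434332 to 26221885 reads elsewhere. All 8 fibroblast markers were at or above 1 FPKM in every fibroblast library, and neuronal markers summed to 41.2 to 61.6 FPKM there. In 2i-MEFs *Dnmt3a* stood at 23.9 FPKM with *Dnmt3b* KO against 4.21 FPKM with its own KO, and *Dnmt3b* at 0.817 FPKM with its own KO against 1.81 FPKM. In the other material *Dnmt3a* was higher under the KO label in MEFs with DMSO (85.7 against 26.1 FPKM), MEFs with GSK126 (84.5 against 19.3 FPKM) and heart (125 against 55.0 FPKM), and lower in liver (12.7 against 53.5 FPKM). A value for the whole gene does not show whether the deleted exons are missing, so these libraries are called "labelled *Dnmt3a* KO" below.

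*Dnmt3b* KO and *Dnmt3a* KO 2i-MEFs held nearly the same sum of *Pcdhg* transcripts, with different shares for its members. Most *Pcdhg* members in the first part of the cluster, though not *Pcdhga1*, *Pcdhga5* and *Pcdhga6*, were higher in *Dnmt3b* KO cells. Most near the end of the A and B series, though not *Pcdhgb8*, were lower than in *Dnmt3a* KO cells. So were most of the first *Pcdhb* members and most of *Pcdha*. Of the 57 members, 4 (7.02%) were at least 2-fold higher on the scale of FPKM + 1 in *Dnmt3b* KO cells, where 0.906% of all genes were, and 5 (8.77%) were at least 2-fold lower, where 1.43% of all genes were. Low genes can hardly reach 2-fold on this scale. Among expressed genes, meaning here a mean FPKM of 1 or more, the shares were 3.06% higher and 4.86% lower, beside the same 4 and 5 members of 28. On the scale of FPKM + 0.1, which lets low genes count, 5 members were higher and 21 lower, where 3.55% and 5.28% of all genes were. In bulk cells, fewer cells using an isoform and less of its RNA per cell cannot be told apart.

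**Figure D1:**
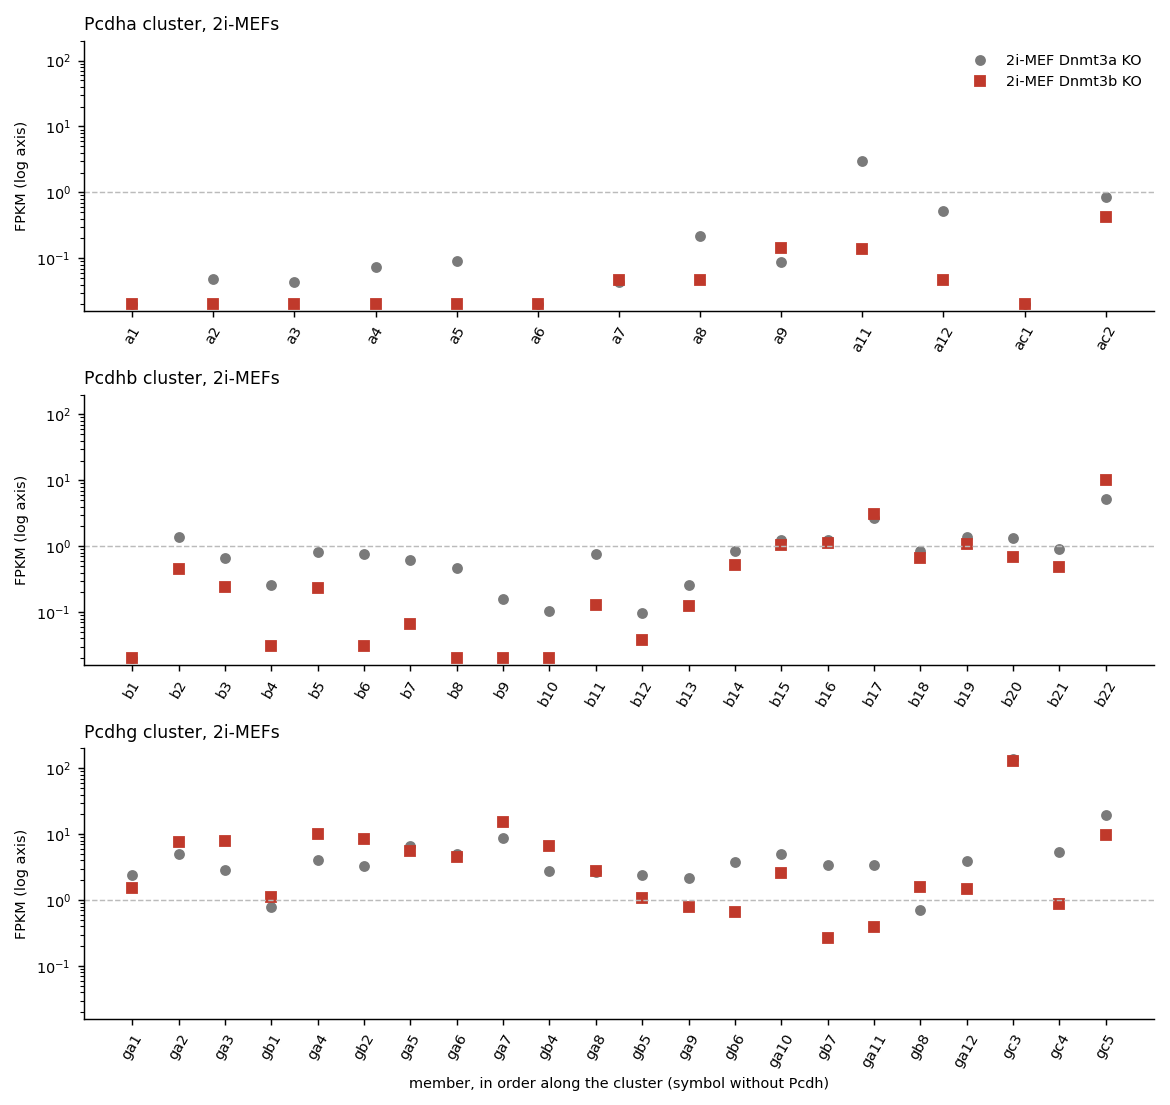
FPKM (log axis) of every clustered protocadherin in order along its cluster, 1 panel per cluster, in the *Dnmt3a* KO library (grey circles) and the *Dnmt3b* KO library (red squares) of 2i-MEFs. Values under 0.02 FPKM are drawn at 0.02, the dashed line is 1 FPKM, and the first *Pcdhb* and most *Pcdha* squares lie below their circles.

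The 4 members that were higher stand in the first part of *Pcdhg*, whose A and B genes encode the alternate isoforms of the cluster. *Pcdhga3* was at 7.81 FPKM in *Dnmt3b* KO and 2.86 FPKM in *Dnmt3a* KO 2i-MEFs, a log2 ratio of 1.19. *Pcdhga4* was at 10.1 and 4.07 FPKM (log2 ratio 1.13), and *Pcdhgb2* was at 8.40 and 3.31 FPKM (1.12). *Pcdhgb4* followed at 6.73 and 2.77 FPKM (1.04). All of these isoforms were plainly expressed in both libraries and differed in amount. In the 4 MEF libraries *Pcdhga3* ranged from 4.08 to 8.67 FPKM and *Pcdhgb2* from 6.85 to 10.3 FPKM, so that for these genes it was the *Dnmt3a* KO library that lay outside the other fibroblasts. *Pcdhga4* was above its MEF range (3.23 to 7.63 FPKM) in *Dnmt3b* KO cells. *Pcdhgb4* was above its MEF range (3.78 to 5.91 FPKM) in *Dnmt3b* KO cells and below it in *Dnmt3a* KO 2i-MEFs.

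Of the 5 members that were lower, 4 stand further along *Pcdhg* and 1, *Pcdha11*, is in *Pcdha*. *Pcdhgb7* was at 0.262 FPKM in *Dnmt3b* KO and 3.46 FPKM in *Dnmt3a* KO 2i-MEFs (log2 ratio -1.82), and the 4 MEF libraries held 4.12 to 5.24 FPKM. *Pcdhga11* was at 0.387 and 3.37 FPKM (-1.65), with 2.93 to 4.24 FPKM in MEFs. *Pcdhgb6* was at 0.664 and 3.84 FPKM (-1.54), with 5.50 to 8.30 FPKM in MEFs. In each of these 3 genes the *Dnmt3b* KO library was the single low one of 6, and *Pcdhga10*, which lies between *Pcdhgb6* and *Pcdhgb7*, differed less (2.60 and 5.03 FPKM). *Pcdhga12*, the last of the A series, was at 1.49 and 3.95 FPKM and came just short of 2-fold on the scale of FPKM + 1 (-0.99). *Pcdhgc4*, a C-type member, was at 0.882 and 5.41 FPKM (-1.77), but MEFs ranged from 0.928 to 6.16 FPKM. *Pcdha11* was at 0.141 and 3.02 FPKM (-1.82), and the MEFs, at 0.0523 to 1.41 FPKM, enclosed the *Dnmt3b* KO value.

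**Figure D2:**
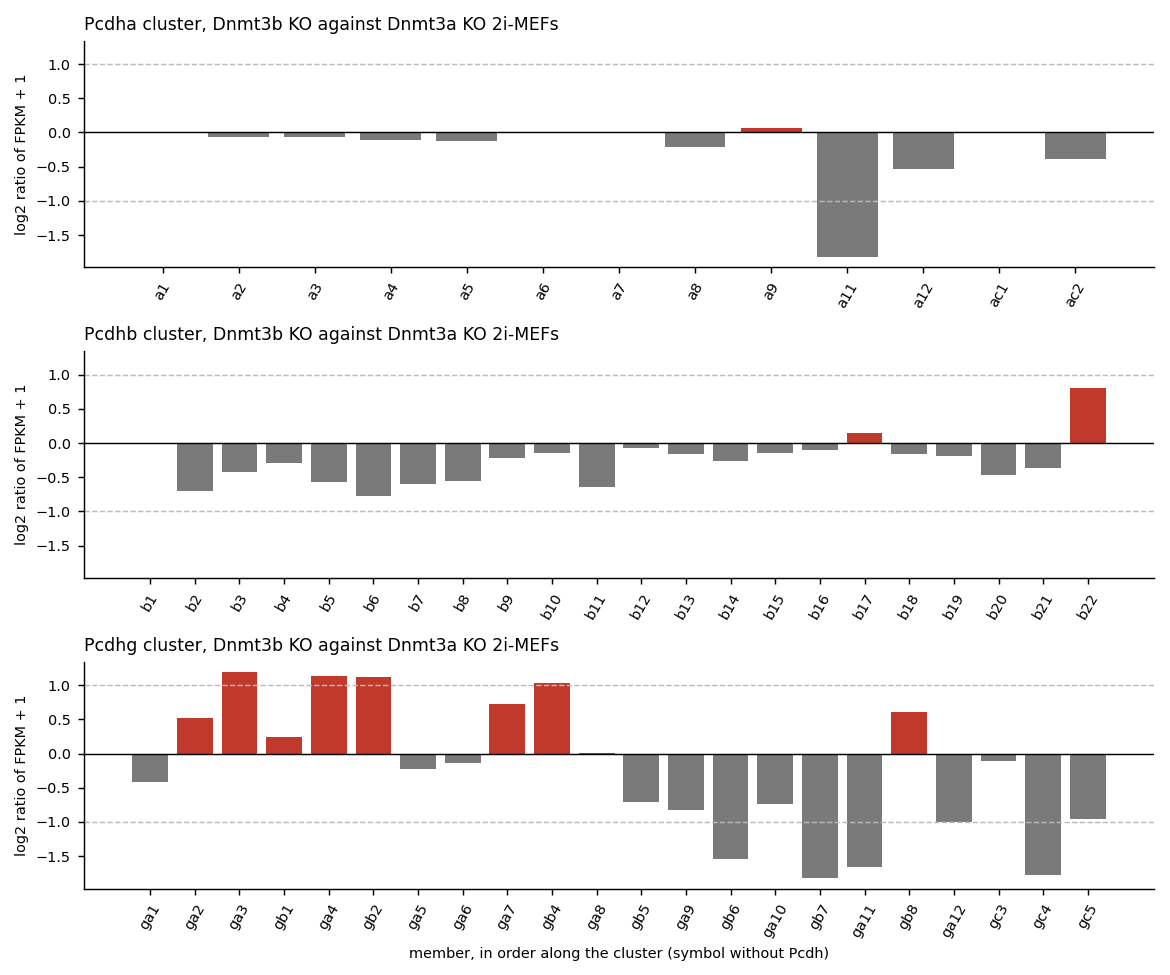
log2 ratio of FPKM + 1, *Dnmt3b* KO against *Dnmt3a* KO 2i-MEFs, 1 bar per member in order along each cluster (red above 0, grey below 0). Dashed lines mark 2-fold, which 4 *Pcdhg* bars pass upward and 4 *Pcdhg* bars and *Pcdha11* pass downward.

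The order along *Pcdhg* was followed through all 19 A and B members. Of the first 10, from *Pcdhga1* to *Pcdhgb4*, 7 were higher and 3 lower in *Dnmt3b* KO cells, with a median log2 ratio of 0.62. Of the last 9, from *Pcdhga8* to *Pcdhga12*, 2 were higher and 7 lower, with a median of -0.82. The summed FPKM of the first 10 was 68.5 in *Dnmt3b* KO and 41.7 in *Dnmt3a* KO 2i-MEFs, and that of the last 9 was 11.6 and 27.6. The 2 parts therefore differed in opposite directions, 1.64-fold higher and 2.38-fold lower. The sum of all 19 was 80.1 FPKM in *Dnmt3b* KO and 69.3 FPKM in *Dnmt3a* KO 2i-MEFs. That of all 22 *Pcdhg* members, most of it *Pcdhgc3*, was 218 and 232 FPKM. The turn was not smooth: *Pcdhga1*, the first member, was lower (1.55 and 2.41 FPKM, log2 ratio -0.42), *Pcdhga5* (5.53 and 6.61 FPKM) and *Pcdhga6* (4.51 and 5.06 FPKM) were slightly lower among higher neighbours, and *Pcdhgb8*, annotated as a polymorphic pseudogene, was higher (1.59 and 0.707 FPKM) among lower ones. Spearman's rho between order and log2 ratio was -0.616 over the 19 members, which share constant exons and 2 libraries.

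The first 10 members supplied 85.5% of the A and B sum in *Dnmt3b* KO 2i-MEFs. The same share was 60.1% in *Dnmt3a* KO 2i-MEFs and 58.4% to 66.4% over all 5 other fibroblast libraries, and it was 55.2% and 52.8% in heart and 49.7% and 50.8% in liver. The *Dnmt3b* KO library thus stood above all 9 others. Without *Pcdhga7*, the highest A and B member in 2i-MEFs at 15.2 and 8.81 FPKM, the share was 82.1% against 51.9% to 62.8%. Over the 9 members with 1 annotated transcript it was 79.2% against 44.4% to 52.8%.

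**Figure D3:**
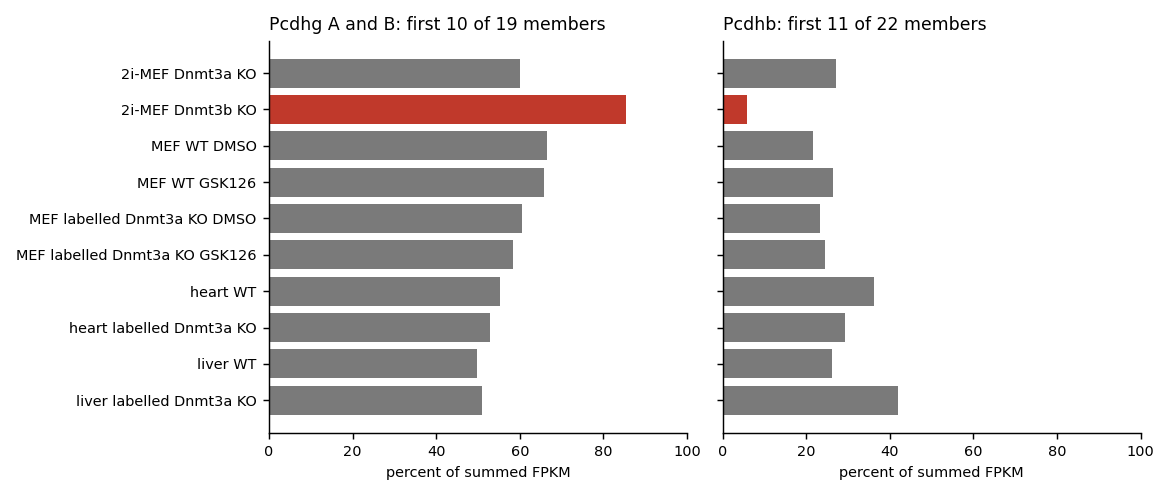
Share of the summed FPKM that came from the first 10 of 19 *Pcdhg* A and B members (left) and the first 11 of 22 *Pcdhb* members (right), in percent, 1 bar per library with *Dnmt3b* KO 2i-MEFs in red. The red bars are at 85.5% and 5.92% and lie outside the other 9 bars in both panels.

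*Pcdhb* genes are mostly single exons with no constant part, and 19 of 22 were lower and 2 higher in *Dnmt3b* KO 2i-MEFs, none of them past 2-fold on the scale of FPKM + 1. The median log2 ratio was -0.24, where the median of all genes was 0 and that of expressed genes was -0.02. Of the first 11 members, *Pcdhb1* to *Pcdhb11*, 10 were lower and *Pcdhb1* was listed at 0 in both. Their summed FPKM was 1.19 in *Dnmt3b* KO and 5.99 in *Dnmt3a* KO cells, 5.04-fold lower, with 2.19 to 3.27 FPKM in 4 MEF libraries. The last 11, *Pcdhb12* to *Pcdhb22*, summed to 18.9 FPKM in *Dnmt3b* KO and 16.2 FPKM in *Dnmt3a* KO cells. *Pcdhb22*, the last of the cluster and its highest member in all 10 libraries, was at 10.0 and 5.30 FPKM (log2 ratio 0.81), and supplied 50.0% of the *Pcdhb* sum in *Dnmt3b* KO and 23.9% in *Dnmt3a* KO cells. *Pcdhb17* was second in both, at 3.08 and 2.69 FPKM.

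Reads could be estimated for the 18 *Pcdhb* members with 1 annotated transcript, 17 of which came within 0.1 of whole reads in both libraries. Such intervals cover counting error only, not the spread between cultures. *Pcdhb7* had 2 reads in *Dnmt3b* KO and 22 in *Dnmt3a* KO 2i-MEFs, a depth-scaled ratio of 0.108 (exact 95% binomial interval 0.0123 to 0.441). *Pcdhb11* had 5 and 35 reads (0.170, 0.0520 to 0.436), *Pcdhb5* had 7 and 30 (0.278, 0.103 to 0.646), and *Pcdhb17* had 126 and 131 (1.15, 0.890 to 1.47). For 8 of the 18 the interval lay below 1 and for 0 it lay above. Of 2624 genes with 1 annotated transcript and at least 1 read, 11.7% had it below and 9.15% above. These genes were not matched to the members in read number, on which such intervals depend. The 18 include *Pcdhb1*, which had no reads. Summed over those of the 18 in the first part the counts were 23 and 131 reads (0.209, 0.128 to 0.328). Over those in the last part they were 388 and 571 (0.809, 0.710 to 0.922). *Pcdhb2*, *Pcdhb6* and *Pcdhb8* of the first part and *Pcdhb22* of the last have more than 1 transcript and were left out.

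Both 2i-MEF libraries stood apart from the MEFs in *Pcdhb*. In the *Dnmt3a* KO library 14 of 22 members were above all 5 other fibroblast libraries and 0 were below, where 9.07% and 5.04% of all genes were. In the *Dnmt3b* KO library 8 were below, where 8.45% of all genes were, and 2 above, near the 9.71% of all genes. By their mean over the fibroblast libraries only *Pcdhb17* and *Pcdhb22* were expressed genes, and both were inside the range in the *Dnmt3a* KO library, where 21.3% of expressed genes were above and 14.3% below, and above it in the *Dnmt3b* KO library, so the 14 and the 8 members were all low genes. *Pcdhb15*, for example, was at 1.27 and 1.05 FPKM in *Dnmt3a* KO and *Dnmt3b* KO 2i-MEFs and at 0.119 to 0.299 FPKM in MEFs. The first 11 members supplied 5.92% of the *Pcdhb* sum in *Dnmt3b* KO cells and 21.6% to 27.0% in the other 5 fibroblast libraries. Without *Pcdhb22* these shares were 11.8% and 32.5% to 37.7%.

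*Pcdha* was hardly expressed. Of its 13 members 8 were lower and 2 higher in *Dnmt3b* KO 2i-MEFs, with a median log2 ratio of -0.07, and 7 were below the value of 1 read there, against 3 in *Dnmt3a* KO cells. The sum was 0.846 and 5.005 FPKM, of which *Pcdha11* made 60.2% in *Dnmt3a* KO cells. *Pcdha12* was at 0.0474 and 0.522 FPKM, and *Pcdha9* at 0.142 and 0.0867 FPKM. The C-type *Pcdhac2*, whose promoter is unlike those of the alternate members, was at 0.421 and 0.861 FPKM, and *Pcdhac1* was listed at 0 in both, when rounded. No member was at 0 in one 2i-MEF library and at 1 FPKM or more in the other. The *Dnmt3b* KO value was below the 5 other fibroblast libraries for 3 members and above for 2 (8.45% and 9.71% of all genes). The *Dnmt3a* KO value was above its 5 counterparts for 6 members and below for 0 (9.07% and 5.04% of all genes). In MEFs *Pcdha12* ranged from 0.0397 to 0.158 FPKM, which encloses its *Dnmt3b* KO value.

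The C-type *Pcdhg* members carried most of the cluster. *Pcdhgc3* was at 128 FPKM in *Dnmt3b* KO and 138 FPKM in *Dnmt3a* KO 2i-MEFs, or 58.5% and 59.4% of the *Pcdhg* sum. *Pcdhgc5* was at 9.65 and 19.6 FPKM (log2 ratio -0.95), both above the 6.05 to 7.73 FPKM of MEFs. The 3 C-type members thus ranged from nearly equal to 6.14-fold apart for *Pcdhgc4*, with the lower value in *Dnmt3b* KO cells each time. *Gm38182*, a processed transcript on the same strand (37823879 to 37840382) whose span covers the first constant exons, was listed at 147 and 141 FPKM, as much as *Pcdhgc3*. The constant exons make 41.7% to 45.9% of the length of a *Pcdhg* transcript and 48.6% to 54.9% of a *Pcdha* transcript, and how their reads were divided among members and *Gm38182* was the authors' software's estimate, so single *Pcdha* and *Pcdhg* values are uncertain.

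The *Dnmt3b* KO value was also set beside the range of the 5 other fibroblast libraries for every member. It lay below that range for 20 of 57 members and above it for 9, where 8.45% and 9.71% of all genes did. Of the 23 expressed members, 9 were below and 6 above, beside 25.1% and 24.7% of expressed genes, so that the share above was near that of other expressed genes. *Pcdhgb6*, *Pcdhgb7* and *Pcdhga11* were below it by at least 2-fold (FPKM + 1), as were 0.322% of all genes and 1.27% of expressed genes, and 0 members were above it by as much, where 0.377% and 1.05% were. Set beside the *Dnmt3a* KO 2i-MEFs and the WT MEFs alone, a choice made after seeing the data, 26 members were below and 9 above, where 10.1% and 11.5% of all genes were. The *Dnmt3a* KO 2i-MEF library lay below the range of its own 5 counterparts for 5 members, all in the first part of *Pcdhg*, and above for 23, beside the shares of all genes given above for that library. Strain and sex also separate 2i-MEFs from MEFs, and their part in these values cannot be told apart from the knockouts.

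**Figure D4:**
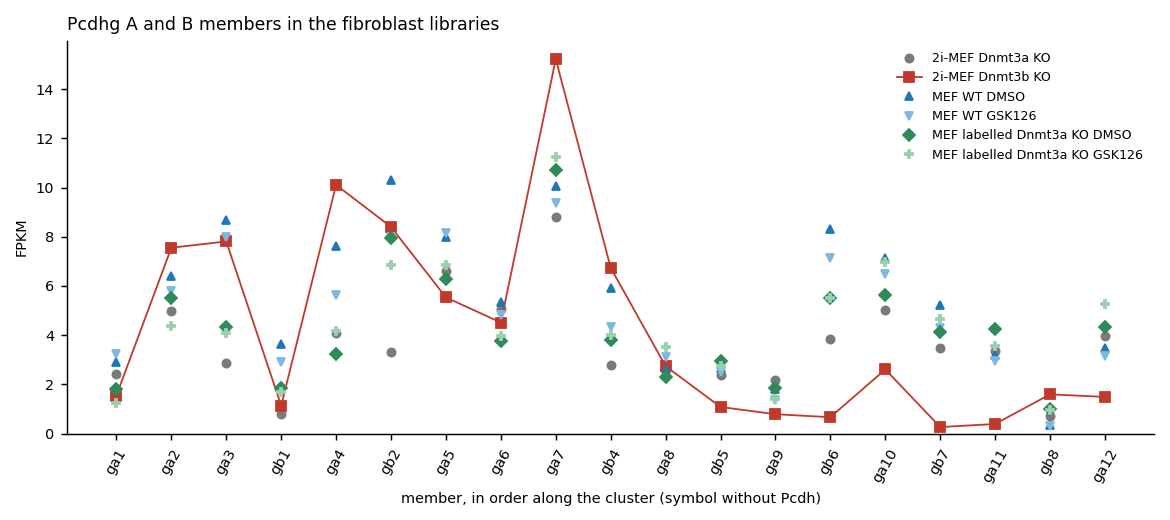
FPKM of the 19 *Pcdhg* A and B members, in order along the cluster, in the 6 fibroblast libraries (1 symbol per library, *Dnmt3b* KO 2i-MEFs joined by the red line). The red line is the highest at *Pcdhga4* and *Pcdhga7* and the lowest at *Pcdhgb6*, *Pcdhgb7* and *Pcdhga11*.

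MEFs labelled *Dnmt3a* KO had less *Pcdhg* RNA than WT MEFs, most of it through *Pcdhgc3*. *Gm38182* was also lower under the KO label, where DMSO-treated cells held 108 FPKM (WT 182) and GSK126-treated cells 89.6 FPKM (WT 182), and the part of read division between it and *Pcdhg* was not tested. The 4 MEF comparisons reuse the same 4 libraries. With DMSO, 0 of 57 members were at least 2-fold higher, where 1.11% of all genes were, and 1 was lower, where 0.528% were. That gene was *Pcdhga4*, at 3.23 FPKM against 7.63 FPKM (log2 ratio -1.03). *Pcdhga3* was at 4.32 and 8.67 FPKM (-0.86) and *Pcdhgc3* at 70.3 and 121 FPKM (-0.78). The 3 largest ratios the other way were *Pcdhgb8* (0.995 and 0.357 FPKM, 0.56), *Pcdhga11* (4.24 and 3.20 FPKM, 0.32) and *Pcdhga12* (4.35 and 3.48 FPKM, 0.25). The *Pcdhg* sum was 160 and 233 FPKM, the *Pcdhb* sum 9.43 and 11.9, and the *Pcdha* sum 1.12 and 1.97. Median log2 ratios were -0.30 for *Pcdhg*, -0.11 for *Pcdhb* and 0 for *Pcdha*, beside 0.04 over expressed genes. Expressed genes passed 2-fold in 3.82% (higher) and 1.81% (lower), and with FPKM + 0.1 there were 1 higher and 2 lower members, where 4.87% and 2.77% of all genes were.

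With GSK126 the same genotypes gave 0 members at least 2-fold higher, where 0.745% of genes were, and 1 lower, *Pcdha11* (0.0523 and 1.41 FPKM, -1.20), where 0.764% were. *Pcdhga1* was at 1.24 and 3.22 FPKM (-0.91) and *Pcdhga3* at 4.08 and 7.99 FPKM (-0.82). *Pcdhga12* was at 5.25 and 3.16 FPKM (0.59), *Pcdhgb8* at 0.940 and 0.306 FPKM (0.57) and *Pcdhgc4* at 6.16 and 4.59 FPKM (0.36). Among expressed genes 2.51% were higher and 2.55% lower, and with FPKM + 0.1 there were 1 higher and 5 lower members, where 3.33% and 3.81% of all genes were. The *Pcdhg* sum was 179 and 227 FPKM, and median log2 ratios were -0.04, -0.13 and 0 for *Pcdhg*, *Pcdhb* and *Pcdha*. Of the first 10 A and B members 9 were lower and 1, *Pcdhga7*, was higher under the KO label with either agent, while of the last 9 members 5 were higher and 4 lower with DMSO and 8 higher and 1 lower with GSK126. Spearman's rho between order and log2 ratio over the 19 members was 0.665 with DMSO and 0.830 with GSK126, and for the same genotypes it was 0.281 in heart and 0.00877 in liver. The rho of -0.616 in 2i-MEFs set *Dnmt3b* KO against *Dnmt3a* KO cells, without WT, so it is not the same comparison as these. Whether they share a cause was not tested. Fibroblast markers had a median log2 ratio of -0.43 with DMSO and -0.56 with GSK126 in the same comparisons. Neuronal markers summed to 45.01 FPKM under the KO label and 61.6 FPKM in WT with DMSO, and to 41.2 and 56.7 FPKM with GSK126, with median log2 ratios of -0.63 and -0.76 over the 5 expressed of them, -0.08 and -0.17 over all 12, and 1, *Map2*, past 2-fold lower with GSK126. With DMSO 1 of 4 endothelial markers, *Cdh5*, was past 2-fold lower and 1 of 6 cardiomyocyte markers, *Tnnt2*, past 2-fold higher. With GSK126 0 of either list passed 2-fold. The part of any of these lists in these results was not tested.

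With GSK126 against DMSO most members differed little, and *Pcdhgc4* was higher in both genotypes. In WT MEFs *Pcdhgc4* was at 4.59 FPKM with GSK126 and 1.99 FPKM with DMSO (log2 ratio 0.90), and in labelled *Dnmt3a* KO MEFs at 6.16 and 0.928 FPKM (1.89). It was the 1 member at least 2-fold higher in KO-labelled cells, where 0.522% of genes were and 0.846% were lower. In WT cells 0 members passed 2-fold in either direction, where 0.559% of genes were higher and 0.408% lower. *Pcdha11* (1.41 and 0.480 FPKM, 0.70) and *Pcdhac2* (1.83 and 1.11 FPKM, 0.43) followed in WT cells, and *Pcdhga4* (5.63 and 7.63 FPKM, -0.38), *Pcdhgb4* (4.34 and 5.91 FPKM, -0.37) and *Pcdhgb2* (7.98 and 10.3 FPKM, -0.33) were lowest. In KO-labelled cells *Pcdhga8* (3.53 and 2.28 FPKM, 0.47) and *Pcdhb17* (1.28 and 0.840 FPKM, 0.31) were next to *Pcdhgc4*. The lowest there were *Pcdhga1* (1.24 and 1.83 FPKM, -0.34), *Pcdhga2* (4.38 and 5.50 FPKM, -0.27) and *Pcdha11* (0.0523 and 0.263 FPKM, -0.26). Of expressed genes 1.67% were higher and 1.33% lower in WT and 1.69% and 2.84% in KO-labelled cells. With FPKM + 0.1 there were 2 higher and 0 lower members in WT (3.15% and 2.69% of all genes) and 1 and 1 in KO-labelled cells (2.47% and 4.4%). Sums of *Pcdhg* differed little, at 227 and 233 FPKM in WT and 179 and 160 FPKM in KO-labelled cells. Fibroblast markers had a median log2 ratio of -0.20 in WT and -0.45 in KO-labelled cells, where *Col3a1* and *Postn* passed 2-fold lower. In WT 1 of 6 cardiomyocyte markers, *Tnnt2*, passed 2-fold higher, and 1 of 7 glial and neural crest markers, *S100b*, lower. The part of these markers was not tested.

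Levels were lower in heart than in fibroblasts and lowest in liver. The summed FPKM of all members was 259 and 239 in 2i-MEFs, 171 to 247 in MEFs, 99.1 and 98.0 in heart and 15.01 and 15.05 in liver, with WT first in each tissue. In every library 24.0% to 25.2% of all genes were at or above 1 FPKM. Members at or above it numbered 28 in *Dnmt3a* KO and 22 in *Dnmt3b* KO 2i-MEFs, 21 to 25 in MEFs, 20 and 18 in heart and 1 in each liver, where *Pcdhgc3* was the one. *Pcdhgc3* was the highest member everywhere, at 47.5 and 42.5 FPKM in heart and 9.10 and 8.60 FPKM in liver. Next to it in heart came *Pcdhga2* (4.60 and 5.29 FPKM) and *Pcdhga10* (4.44 and 4.58 FPKM), whereas MEFs and 2i-MEFs had *Pcdhga7* among their leading A and B members. The highest *Pcdhb* member after *Pcdhb22* was *Pcdhb17* in every fibroblast library and in WT heart (0.650 FPKM), and *Pcdhb20* in labelled *Dnmt3a* KO heart (0.772 FPKM). *Pcdhac2* led *Pcdha* in 7 libraries, *Pcdha11* in *Dnmt3a* KO 2i-MEFs and WT liver (0.335 FPKM), and *Pcdha4* in KO-labelled liver (0.0191 FPKM). *Pcdhb19* came next after *Pcdhb22* and *Pcdhb17* in *Dnmt3a* KO 2i-MEFs (1.38 FPKM) and in 3 MEF libraries (0.787 to 1.02 FPKM), and *Pcdhb16* did in *Dnmt3b* KO 2i-MEFs (1.11 FPKM). Early *Pcdhb* members reached the leading 3 elsewhere, with *Pcdhb5* among them in KO-labelled MEFs with GSK126 (0.751 FPKM) and heart (0.427 FPKM) and *Pcdhb7* in WT heart (0.367 FPKM). In liver *Pcdhb6* (0.0796 and 0.0809 FPKM), *Pcdhb8* (0.149 FPKM in KO-labelled liver) and *Pcdhb16* (0.0759 FPKM in WT) followed *Pcdhb22*. *Pcdha4* was among the leading 3 of *Pcdha* in the 3 MEF libraries other than WT with DMSO (0.109 to 0.195 FPKM), and second in KO-labelled heart (0.0484 FPKM). Beyond these the leading *Pcdha* places in heart and liver were held by values at 0 or, as for *Pcdha5* in WT liver (0.0126 FPKM) and *Pcdhac1* in KO-labelled liver (0.0117 FPKM), near the value of 1 read.

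**Figure D5:**
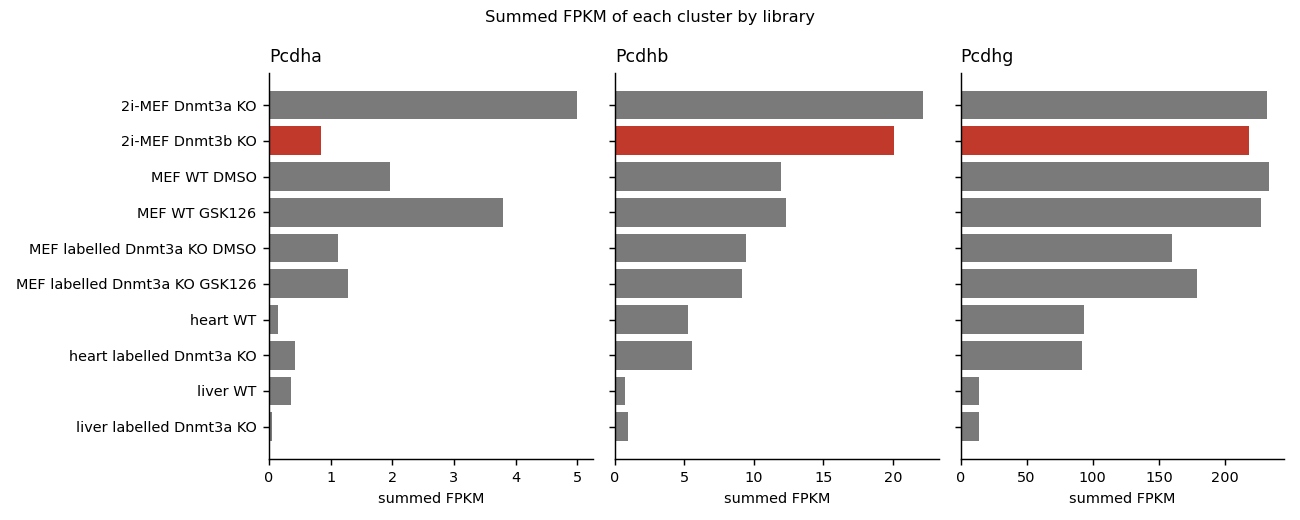
Summed FPKM of the 13 *Pcdha*, 22 *Pcdhb* and 22 *Pcdhg* members, 1 bar per library, with *Dnmt3b* KO 2i-MEFs in red and a separate linear axis per cluster. *Pcdhg* sums lie between 160 and 233 in fibroblasts, at 93.7 and 92.0 in heart and at 13.9 and 14.1 in liver.

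In heart and liver no member differed by 2-fold on the scale of FPKM + 1 between labelled *Dnmt3a* KO and WT, where 0.576% and 0.488% of genes in heart and 0.351% and 0.581% in liver were higher and lower. In heart the largest ratios were those of *Pcdhga11* (3.39 and 2.08 FPKM, log2 ratio 0.51), *Pcdhb20* (0.772 and 0.314 FPKM, 0.43) and *Pcdhgb8* (1.87 and 1.13 FPKM, 0.43). The smallest were those of *Pcdhgc5* (0.173 and 1.02 FPKM, -0.78), *Pcdhb2* (0.0248 and 0.340 FPKM, -0.39) and *Pcdhgc4* (0.869 and 1.37 FPKM, -0.34). Hepatocyte markers summed to 32.8 FPKM in WT and 7.29 FPKM in KO-labelled heart, and *Gm38182* read 95.5 FPKM in the WT heart against 59.8 FPKM in the KO-labelled heart. The part of either in these values was not tested. In liver *Pcdhgc5* (0.444 and 0.127 FPKM, 0.36), *Pcdhga10* (0.628 and 0.326 FPKM, 0.30) and *Pcdhb8* (0.149 FPKM and 0, 0.20) had the largest ratios. *Pcdha11* (0 and 0.335 FPKM, -0.42), *Pcdhgc4* (0.0716 and 0.392 FPKM, -0.38) and *Pcdhgb7* (0.158 and 0.400 FPKM, -0.27) had the smallest. Of expressed genes 1.72% and 1.4% in heart and 1.21% and 2.01% in liver were higher and lower. With FPKM + 0.1 there were 1 higher and 4 lower members in heart (3.1% and 3.27% of all genes) and 2 and 2 in liver (2.09% and 3.35%). In the same livers, WT first, cardiomyocyte markers summed to 60.5 and 6.61 FPKM, fibroblast markers to 540 and 293 FPKM, and *Gm38182* was at 13.9 and 2.69 FPKM, and their part was not tested. For scale, 1 read on a *Pcdhg* transcript of median length was worth 0.00844 FPKM in WT and 0.00859 FPKM in KO-labelled liver.

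Genes outside the clusters gave a setting for the 2i-MEF comparison. Of 12 non-clustered protocadherins 0 were at least 2-fold higher and 1 was lower, *Pcdh10*, at 1.38 FPKM in *Dnmt3b* KO and 20.02 FPKM in *Dnmt3a* KO 2i-MEFs, with 2.87 to 11.6 FPKM in MEFs. Their median log2 ratio was 0.01. Of 23 regulators, among them CTCF, cohesin subunits, SMCHD1, SETDB1, the DNA methylation enzymes and the ICF genes *Zbtb24*, *Hells* and *Cdca7*, only *Dnmt3a* itself passed 2-fold, and the median was -0.06. *Ctcf* was at 36.6 and 29.3 FPKM, *Rad21* at 41.03 and 43.3 FPKM and *Smchd1* at 13.0 and 13.7 FPKM. Of 65 other genes within 500 kb of the clusters 1 was at least 2-fold higher and 1 lower, with a median of -0.05 over the 25 expressed ones. *Taf7* and *Diaph1*, which lie before and after *Pcdhg* on the other strand, were at 1.86 and 1.80 FPKM and at 19.05 and 18.05 FPKM. Of 302 other genes that the study lists as DNMT3B targets from DNA methylation of such cells, a list that also holds protocadherins and so is not independent of them, 14 were at least 2-fold higher and 8 lower, beside the 0.906% and 1.43% of all genes, with a median of -0.08 over the 108 expressed ones.

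In the other 6 comparisons 0 of the 12 non-clustered protocadherins were at least 2-fold higher, and 1, *Pcdh10* again (4.65 and 11.6 FPKM), was lower in labelled *Dnmt3a* KO against WT MEFs with GSK126. Of the regulators only *Dnmt3a*, and *Tet2* in MEFs with DMSO (3.90 and 1.09 FPKM), passed 2-fold. Neuronal markers in 2i-MEFs summed to 47.9 FPKM in *Dnmt3b* KO and 59.3 FPKM in *Dnmt3a* KO cells with 0 of 12 past 2-fold, and 1 of 7 glial and neural crest markers, *Fabp7*, was lower in *Dnmt3b* KO cells. Hepatocyte, erythroid, endothelial and pluripotent markers each summed to at most 1.46 FPKM in 2i-MEFs, and cardiomyocyte markers to 9.22 and 8.32 FPKM.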

How the data were processed

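RNA was sequenced from 10 libraries, 1 per condition. The deposited table holds FPKM per gene as the authors computed it: trimmed single reads from a stranded kit were mapped to mm10 with GENCODE M15, unique reads were kept, and Cufflinks divided them among transcripts. The submitters' processing notes name cutadapt 1.9.1, TopHat2 2.1.0, Bowtie2 2.2.5 and Cufflinks 2.2.1, while the study's methods give other versions for the mapping tools. The strand setting is not given in the sources used here. Of 26 samples, 16 methylation samples were not analysed here.

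Rows with the same symbol were summed (52609 rows, 52454 symbols). Log2 ratios used FPKM + 1, with no filter, and 2-fold was the threshold. With 1 library per condition no test was run. Depth was estimated as the number of reads for which values of single-transcript genes of at least 1500 bases (6716 genes) come out whole, with a fragment of 202 to 204 bases. Of values under 10 reads, 96.5% to 98.1% lay within 0.1 of a whole number. The procedure was checked on simulated data. Transcript lengths came from GENCODE M21, whose starts equal the table's for all 57 members. Intervals are exact 95% binomial.

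The members and gene lists were chosen with earlier results of these data known. Named were the 5 members with the largest and the 3 with the smallest log2 ratio in 2i-MEFs, 3 and 3 in each other comparison, the 3 highest of each cluster per library and the C-type members. Other members were named after their values were seen, as was the split into first and last members. Alternatives were a pseudocount of 0.1, centring, a filter at 1 FPKM, the higher row for a repeated symbol, a 1.5-fold threshold, TPM and 0.3 FPKM. Python 3.11.15, numpy 2.4.6, pandas 2.3.3, scipy 1.17.1 and matplotlib 3.10.9 were used.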

Additional observations from a re-analysis of the deposited data

Results flagged for a closer look

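Each value here is the log2 ratio in the first setting minus that in the second, with 1 library per condition. The opposite directions were not tested.

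GSK126 against DMSO went in opposite directions in WT and in labelled *Dnmt3a* KO MEFs for the summed FPKM of *Pcdhb* (0.0446 and -0.0422, difference 0.0868) and of *Pcdhg* (-0.039 and 0.157, difference -0.196). It also did for *Pcdha11* (0.702 and -0.263, difference 0.965), *Pcdhga1* (0.112 and -0.335, difference 0.447), *Pcdhga4* (-0.38 and 0.293, difference -0.673) and *Pcdhgb4* (-0.371 and 0.0629, difference -0.434).

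Labelled *Dnmt3a* KO against WT went in opposite directions with DMSO and with GSK126 for *Pcdhgc4* (-0.633 and 0.358, difference -0.991).

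The same genotypes went in opposite directions in heart and in liver for the summed FPKM of *Pcdha* (1.48 and -3.13, difference 4.61), where no sum passed 0.414 FPKM, and of *Pcdhg* (-0.0257 and 0.0168, difference -0.0425). With each library rescaled to TPM the *Pcdhg* ratios were -0.0128 and -0.0448, in the same direction. They also did for *Pcdhgc5* (-0.785 and 0.357, difference -1.14), *Pcdhga11* (0.509 and -0.00892, difference 0.518), *Pcdhb20* (0.431 and -0.0467, difference 0.478), *Pcdhb2* (-0.387 and 0.0423, difference -0.429) and *Pcdhb8* (-0.0191 and 0.2, difference -0.219).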

How the results depend on the processing

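With 1 library per condition no spread between cultures is known. With a pseudocount of 0.1 members at least 2-fold lower in *Dnmt3b* KO against *Dnmt3a* KO 2i-MEFs numbered 21 in place of 5, and with a 1.5-fold threshold 7 were higher and 14 lower (2.73% and 3.8% of all genes). In labelled *Dnmt3a* KO against WT MEFs the pseudocount of 0.1 gave 1 higher and 2 lower with DMSO and 1 higher and 5 lower with GSK126, the 1.5-fold threshold gave 5 lower with DMSO (1.95% of all genes) and 1 higher and 5 lower with GSK126 (2.28% and 2.53%), and the filter at a mean of 1 FPKM left 0 lower with GSK126. For GSK126 against DMSO the pseudocount gave 2 higher in WT and 1 lower in KO-labelled cells, and the 1.5-fold threshold 2 higher in WT (1.86%). In heart the pseudocount gave 1 higher and 4 lower and the 1.5-fold threshold 1 lower (1.72%), and in liver the pseudocount gave 2 and 2. Cluster medians with the pseudocount of 0.1 were -0.57 for *Pcdha* and -0.83 for *Pcdhb* in 2i-MEFs, and for *Pcdhb* -0.35 and -0.41 in MEFs with DMSO and GSK126. With the filter they were -1.82 (1 member) for *Pcdha* and -0.12 for *Pcdhb* in 2i-MEFs, -0.28 for *Pcdhb* with DMSO, -0.62 for *Pcdha* with GSK126, 0.43 for *Pcdha* in WT MEFs with GSK126 against DMSO, 0.18 for *Pcdhb* in heart and -0.0726 for *Pcdhg* in liver. Centring gave -0.0031 for *Pcdha* in heart and 0.0762 for *Pcdha* and 0.0771 for *Pcdhb* in liver. At 0.3 FPKM 28 members were expressed in KO-labelled heart and 9 and 10 in the livers. Estimated reads of the 18 single-transcript *Pcdhb* members gave a ratio of 0.698 in 2i-MEFs where summed FPKM of all 22 gave 0.904. The read sum leaves out *Pcdhb2*, *Pcdhb6*, *Pcdhb8* and *Pcdhb22*. Rescaling to TPM turned the sign of the *Pcdhg* sum ratio in liver from 0.0168 to -0.0448 and of no other sum ratio. Using the higher row for a repeated symbol moved no count or median past the limits used. The range without the MEFs labelled *Dnmt3a* KO, chosen after seeing the data, is given with the results.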
